A study of Homo sapiens with 18 samples.

Results

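The data described here compare the transcriptional response to isoproterenol between HEK293 β-arrestin1/2 KO cells and HEK293 Gαs KO cells. The quantity is a response difference: the log2 change from basal to isoproterenol in β-arrestin1/2 KO cells minus the same change in Gαs KO cells, so a positive value means a larger rise, or a smaller fall, in β-arrestin1/2 KO cells. It was taken from 12 of the 18 RNA-Seq libraries of the series, those of the KO lines, and no wildtype library entered the model. Each of the 4 groups had 3 biological replicates. HEK293 is a human embryonic kidney line, and both KO lines were derived from it with CRISPR-Cas9. The β-arrestin1/2 KO cells lack both β-arrestins and keep Gαs, and the Gαs KO cells lack the product of GNAS and keep both β-arrestins. Whether each line is 1 clone is not given in the sources used here. All 4 groups shared the same background treatment: transfection with a plasmid for the wild type β2-adrenergic receptor (β2AR), overnight serum starvation, and then, at 48 h after transfection, 1 h with vehicle (basal) or with 1 μM isoproterenol, a β-adrenergic agonist. The response is therefore that of cells carrying transfected β2AR. Of 15327 genes tested, 572 (3.73%) had a response that differed between the lines at a Benjamini-Hochberg adjusted p under 0.05 by edgeR's quasi-likelihood test, and these are named called genes below.

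The β2AR couples to Gαs, which activates adenylyl cyclase, and the cAMP formed releases the catalytic subunits of protein kinase A (PKA). PKA phosphorylates the transcription factor CREB, which binds cAMP response elements in promoters, and targets of CREB such as the NR4A receptors, FOS, DUSP1, SIK1 and PCK1 belong to the classic fast response to cAMP. β-arrestins bind the phosphorylated receptor, uncouple it from the G protein, carry it to endocytosis, and serve as scaffolds for kinases of the MAP kinase pathway.

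The libraries held between 17908597 and 25019834 estimated read pairs, with a median of 20651107, and 93.55 to 93.76% of them fell on annotated genes. Values below are counts per gene scaled to a common library size by edgeR's TMM method, called normalized counts. They give a gene's share of the RNA in a bulk culture, so fewer responding cells and less RNA per cell cannot be told apart. Summed normalized counts of 8 markers of HEK293 cells ran from 4890 to 8010 in the 12 libraries, and ran from 4890 to 5080 in the basal and from 6190 to 6390 in the isoproterenol libraries of β-arrestin1/2 KO cells against 7500 to 8010 and 7580 to 7910 in Gαs KO cells. Most of this sum came from NEFL, with unscaled basal counts of 3405, 4657 and 3356 in β-arrestin1/2 KO and 6514, 7034 and 7156 in Gαs KO cells. At basal EYA1 was also higher in Gαs KO cells, but INA was lower there (81, 112 and 93 against 138, 244 and 196). The sum is therefore mainly the level of 1 gene. The sums of 6 blood markers stayed between 59.8 and 137, of 4 endothelial markers between 85.8 and 128, and of 4 squamous markers between 2.19 and 18.5. Among the blood markers, PTPRC, CD3E and HBB had 0 counts in all 12 libraries. Fibroblast markers summed to between 688 and 966 normalized counts, mostly from COL1A1 in β-arrestin1/2 KO cells and from COL1A1 and COL3A1 in Gαs KO cells. COL3A1 had unscaled basal counts of 27, 27 and 27 in the former and 331, 332 and 348 in the latter. COL1A1 had 728, 962 and 739 against 398, 474 and 442. The part of these markers in the response difference was not tested. With 3 libraries against 3, an exact permutation test of a single value cannot give a two-sided p under 0.1, so calls rest on the model across all genes.

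GNAS (ENSG00000087460, chromosome 20 from 58839718 to 58911192 in GRCh38), which encodes Gαs, had 31429.9, 32502 and 30375 normalized counts in the 3 basal and 23730.1, 25022 and 23755 in the 3 isoproterenol libraries of β-arrestin1/2 KO cells, against 1294, 1206 and 1406 at basal and 1243, 1366 and 1381 with isoproterenol in Gαs KO cells. Every β-arrestin1/2 KO library was far above every Gαs KO library, with a basal log2 difference of 4.59 (SE 0.0598, adjusted p = 7.6e-16). In β-arrestin1/2 KO cells the isoproterenol libraries lay below all basal libraries for GNAS, and its response difference was -0.41 (SE 0.0766, adjusted p = 0.0101). That call was lost with GC and length offsets (adjusted p = 0.0891) and over all 18 libraries (0.998). ARRB2, the gene of β-arrestin2, had 457, 419.7 and 356 normalized counts in the basal libraries of β-arrestin1/2 KO cells, while Gαs KO cells had 1521, 1409.6 and 1437, without overlap (basal log2 difference -1.82). ARRB1, the gene of β-arrestin1, had 829.7, 748 and 860.2 against 870.5, 973 and 924, a smaller basal log2 difference of -0.18 (adjusted p = 0.0332). Counts over a whole gene do not show small edits in the coding sequence, so the ARRB1 level does not test the knockout.

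Genes that responded more positively in β-arrestin1/2 KO cells outnumbered those that responded more negatively, with 378 positive (2.47% of genes tested) and 194 negative differences (1.27%). The positive genes had a median difference of 0.40 on the log2 scale, made of a median response of 0.35 in β-arrestin1/2 KO cells with one of -0.026 in Gαs KO cells. For the negative genes these medians were -0.37, -0.32 and 0.044. These genes were chosen by the difference itself, so their medians describe the calls and do not test them. Over all genes tested the median difference was -0.0085. Most differences were small: 241 positive and 144 negative genes stayed under 0.5 on the log2 scale, and 53 positive and 9 negative genes reached 1. The share of positive calls was 66.1%, and it was 52.6% with upper-quartile scaling (318 positive, 286 negative) and 81.7% with offsets for GC content and transcript length (232 and 52). In the single responses, from the same 12 libraries, 2208 genes (14.4%) were called in the line without β-arrestins, 1182 of them higher and 1026 lower, and 1 gene (0.00652%), EGR1, was called in Gαs KO cells. At an unadjusted p under 0.05, the response difference held 3098 genes, the β-arrestin1/2 KO response 4406 and the Gαs KO response 533. DESeq2's Wald test called 979, 2453 and 12.

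**Figure D1:**
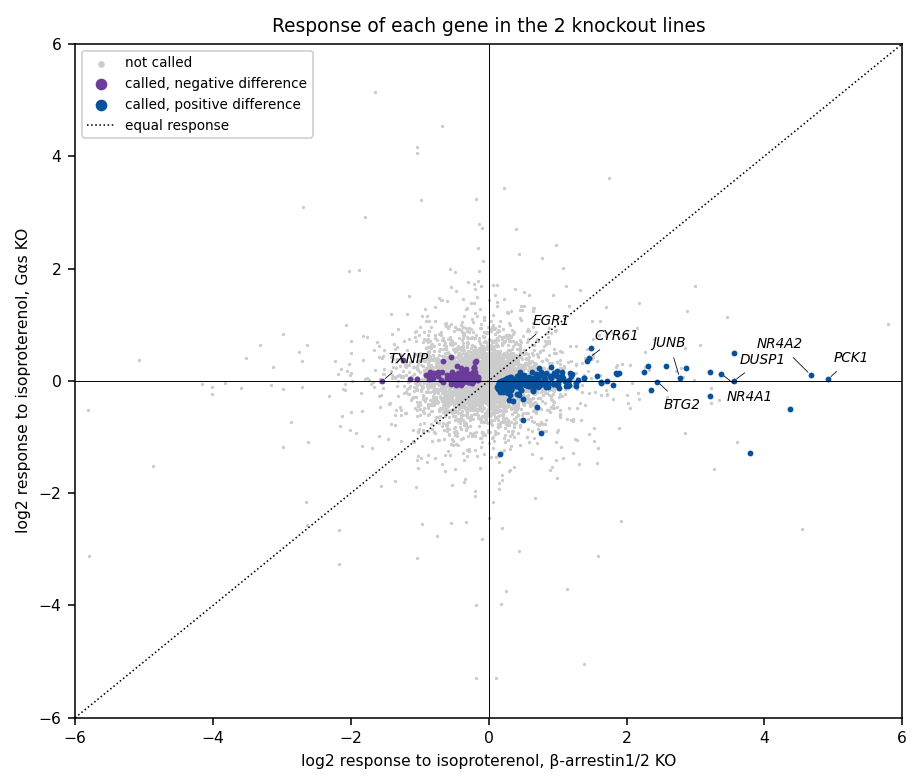
Each point is 1 of 15294 genes, with its log2 response to isoproterenol in β-arrestin1/2 KO cells on the horizontal and in Gαs KO cells on the vertical axis (33 genes lie beyond the limit of 6 on either axis). Called genes spread along the horizontal axis, as for PCK1 at 4.92 and 0.03, and the dotted line marks equal responses.

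The number of calls depended on single libraries, since it ranged from 267 without Gαs KO basal replicate 3 to 959 without β-arrestin1/2 KO basal replicate 2. It was also over 1.5 times lower without β-arrestin1/2 KO basal replicate 1 (341) or 3 (347), without Gαs KO basal replicate 1 (327), and without Gαs KO isoproterenol replicate 1 (294) or 3 (324). The genes with large positive differences depended on it less: of the 53 that reached 1, between 45 and 51 were called in each of these 12 fits. In simulated counts with the same depths, 58% of genes given a 1.5-fold response difference were recovered, 82% at 2-fold, 94% at 3-fold and 96% at 4-fold. The changed genes were drawn only from those above a minimum mean count. Before the change each gene had the same mean in every group, its spread was that fitted to these data, and no shift with GC content was added. These rates therefore need not hold for all genes tested.

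The NR4A nuclear receptors, orphan receptors that are switched on within minutes by cAMP, had the highest median difference of the 24 gene lists examined. All 3 members were called positive, with a median difference of 4.57. Counts of called members, here and for the lists below, stand against 2.47% of all genes tested that were called positive. NR4A1 had 922, 802 and 995 normalized counts at basal and 10227, 8319 and 9508 with isoproterenol in β-arrestin1/2 KO cells, and 345, 332 and 354 at basal and 419, 358 and 350.5 with isoproterenol in Gαs KO cells. The isoproterenol libraries of β-arrestin1/2 KO cells stood above all 9 others, and the basal and isoproterenol libraries of Gαs KO cells overlapped. The response difference of NR4A1 was 3.24 (SE 0.139, adjusted p = 5.5e-09). NR4A2 went from 167, 188 and 181 to 5058, 4288 and 4382 in β-arrestin1/2 KO cells, where its log2 response was 4.67. In Gαs KO cells it had 119.5, 111 and 112 at basal and 96.9, 148 and 123 with isoproterenol, a log2 response of 0.10 (SE 0.139), and the groups overlapped. The response difference of NR4A2 was 4.57 (SE 0.174, adjusted p = 2.19e-09). For NR4A3 the counts were 46.8, 28.6 and 48.1 at basal and 986, 727 and 807 with isoproterenol in β-arrestin1/2 KO cells against 32.8, 39.5 and 17.2 at basal and 27.3, 16.2 and 18.8 with isoproterenol in Gαs KO cells, with a response difference of 4.88 (SE 0.402, adjusted p = 6.22e-06). The Gαs KO values of NR4A3 rest on few counts, which is seen in the larger SE. Among annotated transcripts of NR4A1, those that start between positions 52051402 and 52051459 of chromosome 12 (GENCODE 29, GRCh38) carried most of the counts, with a mean of 630 ± 145 normalized counts (SD, n = 3) at basal and 7503 ± 1840 with isoproterenol in β-arrestin1/2 KO cells, while Gαs KO cells had 188.5 ± 16.2 and 183 ± 54.1. Counts of single transcripts of 1 gene are shared out by Salmon and are less certain than gene sums.

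**Figure D2:**
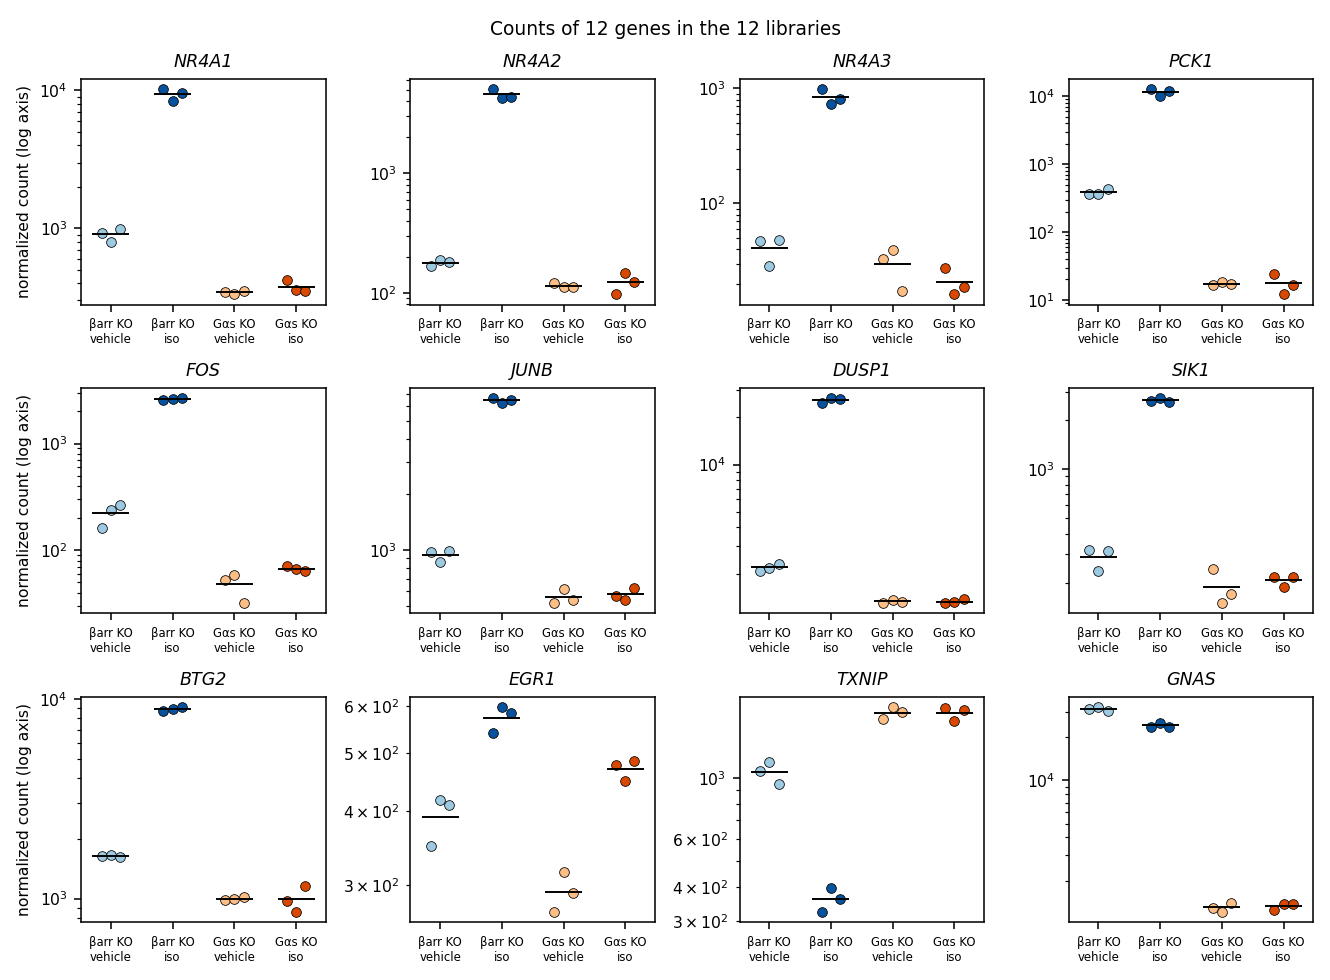
Normalized counts (log axis) of 12 genes in each of the 12 libraries, with 1 point per library and a line at the mean of each group. The isoproterenol libraries of β-arrestin1/2 KO cells stand above all others for NR4A1, NR4A2, NR4A3, PCK1, FOS, JUNB, DUSP1, SIK1 and BTG2 and below all others for TXNIP, EGR1 is higher with isoproterenol in both lines, and GNAS separates the lines.

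CREB binds the palindrome TGACGTCA, or with less strength its TGACG part, and these letters were counted upstream of the called genes. In RefSeq promoter windows of GRCh38.p14, from 250 bases before to 50 after a gene's start, TGACGTCA was found in 4 of 39 positive genes with a log2 difference of at least 1 (10.3%), in 19 of 296 positive genes (6.42%), in 4 of 156 negative genes (2.56%) and in 356 of 11531 tested genes (3.09%). Among all 27305 windows it was found in 540 (1.98%). TGACG or its reverse complement CGTCA, both of which lie within the palindrome, was found in 24 of the 39 (61.5%), in 44.9% of positive, 35.3% of negative and 33.0% of tested genes, and in 6828 of all windows (25%). Of the 53 genes with large positive differences, 39 had a window. These shares describe letters and were not tested. The stretches below, read on the strand of the gene and ending before its start, show the sites of genes with large differences (DUSP1, NR4A3, SIK1 and FOS) and of the other genes of the 39 with the whole palindrome (PPP1R15A, FRAT1 and AVPI1, the last 2 chosen after their values were seen). Capitals mark TGACGTCA, TGACG or CGTCA.
DUSP1 (chr5:172771282-172771387, minus strand): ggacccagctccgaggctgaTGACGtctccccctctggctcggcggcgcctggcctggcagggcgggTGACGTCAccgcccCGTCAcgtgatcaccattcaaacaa
NR4A3 (chr9:99821756-99821884, plus strand): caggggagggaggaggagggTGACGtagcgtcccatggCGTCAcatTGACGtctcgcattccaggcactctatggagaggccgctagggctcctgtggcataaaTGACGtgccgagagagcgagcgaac
SIK1 (chr21:43427233-43427368, minus strand): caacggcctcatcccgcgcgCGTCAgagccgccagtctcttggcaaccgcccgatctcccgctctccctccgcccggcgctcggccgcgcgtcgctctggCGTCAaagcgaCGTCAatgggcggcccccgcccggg
FOS (chr14:75278744-75278788, plus strand): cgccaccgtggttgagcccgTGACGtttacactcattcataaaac
PPP1R15A (chr19:48872249-48872390, plus strand): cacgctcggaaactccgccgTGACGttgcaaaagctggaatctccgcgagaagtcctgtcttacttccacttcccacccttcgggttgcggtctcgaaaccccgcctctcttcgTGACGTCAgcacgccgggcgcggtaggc
FRAT1 (chr10:97319206-97319253, plus strand): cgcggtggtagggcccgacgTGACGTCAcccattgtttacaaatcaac
AVPI1 (chr10:97687456-97687491, minus strand): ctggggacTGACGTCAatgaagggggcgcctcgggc
The palindrome of DUSP1 begins 125 bases before the annotated start, that of PPP1R15A 58, that of FRAT1 45 and that of AVPI1 242. FRAT1, which encodes a GSK3-binding protein, and AVPI1, a gene known as induced by vasopressin, had response differences of 1.03 and 1.17. The window of NR4A1 lies at its most upstream start, which is not the start that carried most counts here, and it held none of these letters. Among the other leading positive genes, the windows of CSRNP1, DUSP2 and EGR2 also held none of them. Those of JUNB, BTG2, EVX1 and AL034430.1, which are not shown, held TGACG or CGTCA but not the palindrome.

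The FOS and JUN family, whose proteins pair to form the AP-1 transcription factor, had 6 of 7 tested members called positive, with a median difference of 1.67. FOS (chromosome 14 from 75278774 to 75282230) had 161, 239 and 266 normalized counts at basal and 2582, 2611 and 2668 with isoproterenol in β-arrestin1/2 KO cells, and 53, 58.8 and 31.9 at basal and 70.7, 66.7 and 64.5 with isoproterenol in Gαs KO cells. Each isoproterenol library of Gαs KO cells was above each of its basal libraries, but by little beside the change in β-arrestin1/2 KO cells. The log2 responses of FOS were 3.56 and 0.50 (SE 0.231), and the response difference was 3.05 (SE 0.279, adjusted p = 1.72e-05). JUNB rose from 977, 866 and 990.3 to 6630.0, 6204 and 6489.9 in β-arrestin1/2 KO cells, and had 516, 616 and 537 at basal and 567, 537 and 622 with isoproterenol in Gαs KO cells, where the groups overlapped. The response difference of JUNB, a gene that overlaps HOOK2 in the annotation, was 2.73 (SE 0.101, adjusted p = 2.19e-09). FOSB and FOSL2 had differences of 1.75 and 1.67, JUN one of 1.06 and JUND one of 0.39. FOSL1, the member not called, had a value of 0.58 (adjusted p = 0.201).

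Other immediate-early genes split. Of 7 tested members of the EGR and IER families, EGR2 (2.32, SE 0.473, adjusted p = 0.0158) and IER2 (1.32, SE 0.0775, adjusted p = 1.95e-07) were called positive, and the median was 0.28. EGR2, a zinc finger factor, had at most 100.1 normalized counts in any library. EGR1 was not called: its log2 responses were 0.55 in β-arrestin1/2 KO and 0.69 in Gαs KO cells, with a response difference of -0.13 (SE 0.121, adjusted p = 0.586). EGR3 had responses of 1.88 and 0.77 and a response difference of 1.12 (adjusted p = 0.0828), so the call was not made. IER3, IER5 and IER5L had differences of 0.28, -0.14 and 0.10. CSRNP1, a cysteine and serine rich nuclear protein, is in none of these lists and had 362, 319 and 343 normalized counts at basal and 1736, 1532 and 1585 with isoproterenol in β-arrestin1/2 KO cells, against 394, 362 and 348 at basal and 431, 435 and 359 with isoproterenol in Gαs KO cells, where the groups overlapped. Its response difference was 2.09 (SE 0.122, adjusted p = 1.95e-07).

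PCK1 (ENSG00000124253, chromosome 20 from 57561080 to 57568112), which encodes the enzyme that commits oxaloacetate to gluconeogenesis and is a textbook CREB target, had one of the largest differences. Its normalized counts were 362, 366 and 436 at basal and 12795, 10221 and 12171 with isoproterenol in β-arrestin1/2 KO cells, and 16.4, 18.3 and 17.2 at basal and 24.2, 12.1 and 16.4 with isoproterenol in Gαs KO cells. The isoproterenol libraries of β-arrestin1/2 KO cells were above all others, and the groups of Gαs KO cells overlapped. The lines were already apart at basal, where the log2 difference was 4.47 (SE 0.19), and with isoproterenol the log2 difference in level was 9.37. The response difference was 4.90 (SE 0.443, adjusted p = 1.61e-05), and at the low counts of Gαs KO cells the response there had an SE of 0.38. Beside PCK1, the list of gluconeogenic and metabolic cAMP targets had NR4A1 and SIK1 called among its 9 tested members, with a median difference of 0.17 for the list. PPARGC1A, the coactivator PGC-1α, had a difference of -0.30 (adjusted p = 0.613), PDK4, a pyruvate dehydrogenase kinase, 0.16, IRS2, an insulin receptor substrate, 0.12, and TAT, tyrosine aminotransferase, 1.66 with an SE of 0.721.

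SIK1 is a salt-inducible kinase that phosphorylates the CREB coactivators and is itself induced by cAMP. A near-identical copy, SIK1B, is annotated on the same chromosome. Reads could be split between SIK1 and SIK1B, so their values are not 2 separate results. Their sum was 498, 411 and 543 normalized counts at basal and 4615, 4379.7 and 4339.5 with isoproterenol in β-arrestin1/2 KO cells. In Gαs KO cells the sum was 354, 309 and 323 at basal and 343, 316 and 313 with isoproterenol, with overlapping groups. Taken singly, SIK1 had a response difference of 3.06 (SE 0.208, adjusted p = 9.4e-07) and SIK1B one of 3.48 (SE 0.212, adjusted p = 2.4e-07). SGK1, the serum and glucocorticoid regulated kinase, had 236, 236 and 271 at basal and 582, 534 and 549 with isoproterenol in β-arrestin1/2 KO cells without overlap, and a response difference of 1.23 (SE 0.143, adjusted p = 0.000203). The 4 other tested members of this kinase list, SIK2, SIK3, SGK2 and SGK3, were not called, and SIK2 and SIK3 had differences of -0.05 and -0.05.

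**Figure D3:**
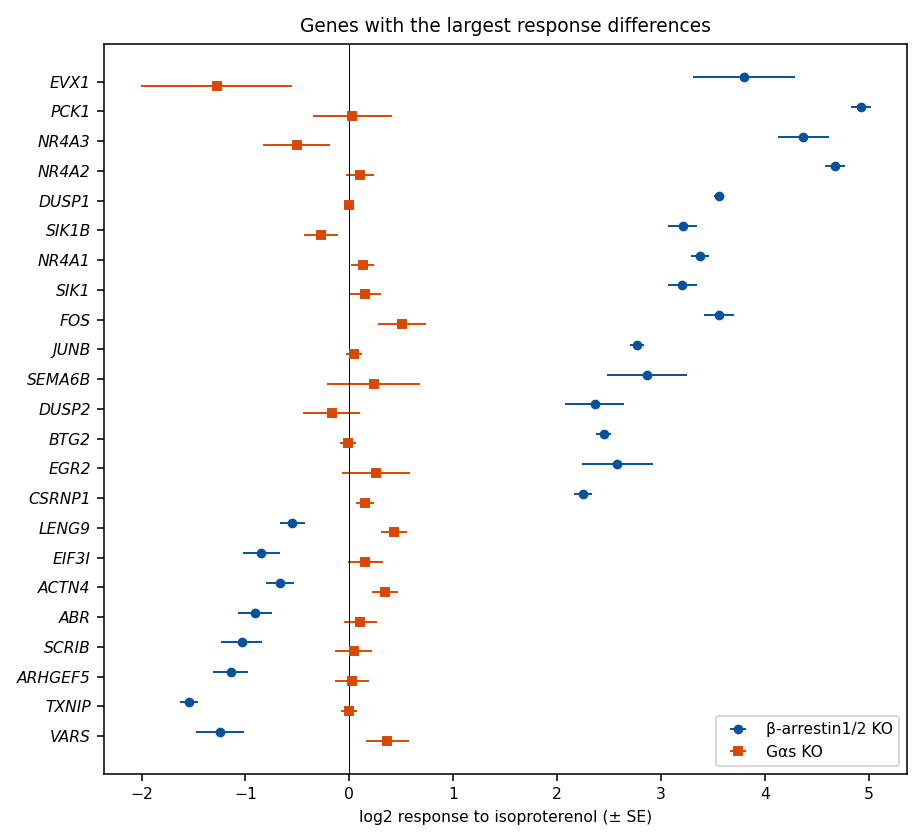
Log2 response to isoproterenol, with its SE, for β-arrestin1/2 KO (circles) and Gαs KO (squares) for 23 of the 26 genes with the largest called differences in each direction, without the 3 genes that had 0 counts in a whole group. Positive genes lie at 2.25 or above in β-arrestin1/2 KO cells, and TXNIP lies at -1.54.

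Of 32 tested genes of the cAMP machinery itself (CREB family, phosphodiesterases and PKA), 3 were called (9.38%, against 3.73% of all genes). None of the 10 tested members of the CREB family and its coactivators was called by edgeR (median difference -0.038), and among them 2 were called by DESeq2's Wald test. CREB1 had a difference of -0.02 (SE 0.09) and the coactivator CRTC2 one of -0.17. CREM had a value of 0.53 (adjusted p = 0.058), and its transcripts did not all move alike. An internal promoter of CREM gives the short repressor ICER, and transcripts that start between positions 35195127 and 35196399 of chromosome 10 had 65.9, 82.9 and 80.2 normalized counts at basal and 253.0, 140.4 and 307.9 with isoproterenol in β-arrestin1/2 KO cells. In Gαs KO cells the same transcripts had 132.8, 122.0 and 130.8 at basal and 71.8, 146.0 and 135.4 with isoproterenol. Transcripts from the first start group, between 35126791 and 35127460, had means of 256.2 ± 66.3 and 265.4 ± 65.4 (SD, n = 3) with vehicle and agonist in β-arrestin1/2 KO cells, and Gαs KO cells had 353 ± 43.2 and 353.5 ± 36.4. The internal group was therefore higher in each isoproterenol library of β-arrestin1/2 KO cells than in each of their basal libraries, and the first group overlapped. These values by start were not tested.

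Of 15 tested cAMP phosphodiesterases, the enzymes that break cAMP down, PDE4D, PDE10A and PDE3B were called positive, and the median difference was 0.41. PDE4D, a cAMP-specific enzyme that β-arrestins recruit to the β2AR, had 501, 518 and 512 at basal and 808, 835 and 779 with isoproterenol in β-arrestin1/2 KO cells, and 386, 402 and 394 at basal and 372, 379 and 359.9 with isoproterenol in Gαs KO cells. The isoproterenol libraries were all higher in the former and all lower, by far less, in the latter, where the log2 response was -0.09 (adjusted p = 1). The response difference was 0.75 (SE 0.0818, adjusted p = 0.000112). Most of the added PDE4D counts fell on the transcript that starts at 59217316 of chromosome 5, with 216 ± 57.7 and 418 ± 58.6 normalized counts (SD, n = 3) in β-arrestin1/2 KO cells. PDE10A and PDE3B had smaller differences, 0.41 (adjusted p = 0.0444) and 0.27 (adjusted p = 0.0394), and they were called in 6 and 8 of 24 alternative fits. PDE4B had a value of 1.14 with an SE of 0.605. Among 7 tested PKA subunits and inhibitors, 0 were called by edgeR, with a median difference of 0.12. PRKAR1A, a regulatory subunit, had a difference of 0.12, PRKACB, a catalytic one, 0.15, and the inhibitor PKIG -0.39 (adjusted p = 0.09).

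Of 9 tested dual-specificity phosphatases that act on MAP kinases, 5 were called positive (median difference 1.02). DUSP1 (ENSG00000120129, chromosome 5 from 172768090 to 172771195), which dephosphorylates p38, JNK and ERK in the nucleus, had the smallest adjusted p of all genes. It had 2095, 2177 and 2314 normalized counts at basal and 24572, 26621 and 26157 with isoproterenol in β-arrestin1/2 KO cells, against 1297, 1369 and 1328 at basal and 1297, 1312 and 1374 with isoproterenol in Gαs KO cells. The isoproterenol libraries of β-arrestin1/2 KO cells were above all others, and in Gαs KO cells the groups overlapped with a log2 response of -0.0046 (SE 0.0479). Its response difference was 3.56 (SE 0.0656, adjusted p = 3.47e-13). DUSP2, a nuclear phosphatase of low abundance here, had 13.1, 19.6 and 33.9 at basal and 107, 126 and 108 with isoproterenol in β-arrestin1/2 KO cells against 47.2, 53 and 37.9 at basal and 40.4, 44.4 and 37.5 with isoproterenol in Gαs KO cells. Its isoproterenol libraries of β-arrestin1/2 KO cells were above the rest, and the response difference was 2.53 (SE 0.388, adjusted p = 0.00263). DUSP4, DUSP5 and DUSP10 had differences of 1.02, 1.07 and 0.67, and DUSP10 was called in 5 of 24 alternative fits, 1 of them among the 12 without 1 library. The cytoplasmic ERK phosphatase DUSP6 had a value of 1.04 with an SE of 0.368 (adjusted p = 0.133) and was not called, and DUSP7 and DUSP9 had -0.01 and -0.06.

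Of 7 tested Sprouty and SPRED genes, inhibitors of receptor tyrosine kinase signalling, SPRY2 was called (response difference 0.63, SE 0.0807, adjusted p = 0.000569), and SPRY4 had 0.92 (adjusted p = 0.0765). Among 15 tested RGS genes, whose proteins speed up GTP hydrolysis by G protein α subunits, RGS2 and RGS16 were called. RGS2 had 136, 156 and 162 normalized counts at basal and 508, 497 and 484 with isoproterenol in β-arrestin1/2 KO cells, and 115, 118 and 148 at basal and 124, 104 and 154 with isoproterenol in Gαs KO cells. The groups overlapped in Gαs KO cells only, and the response difference was 1.71 (SE 0.2, adjusted p = 0.000208). RGS16 had a response difference of 0.97 (SE 0.0725, adjusted p = 2.21e-06). The medians of the Sprouty and SPRED list (-0.025) and the RGS list (-0.055) were near that of all genes, of which 2.47% were called positive.

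All 8 tested members of the BTG/TOB and ZFP36 families were called positive, the former linked to mRNA deadenylation and growth arrest and the latter to decay of mRNAs with AU-rich elements. The median difference was 0.78. BTG2 had 1641, 1653 and 1611 at basal and 8672, 8970.5 and 9133 with isoproterenol in β-arrestin1/2 KO cells, and 985, 989.5 and 1023 at basal and 972, 854 and 1155 with isoproterenol in Gαs KO cells, where the 3 basal values lay inside the range of the isoproterenol values. Its response difference was 2.46 (SE 0.103, adjusted p = 5.5e-09). TOB1 rose from 1520.0, 1617 and 1588 to 4884, 4654 and 5042 in β-arrestin1/2 KO cells, with a response difference of 1.64 (SE 0.0704, adjusted p = 5.5e-09) against a log2 response of -0.01 in Gαs KO cells. ZFP36L1 had a response difference of 1.08 (SE 0.0807, adjusted p = 2.21e-06), and ZFP36, the founding member, 0.81 (SE 0.2, adjusted p = 0.0394). The call of ZFP36 was made in 8 of 24 alternative fits and that of BTG3 in 16, in 2 and 6 of the 12 fits without 1 library. The remaining BTG1, BTG3, TOB2 and ZFP36L2 had differences from 0.51 (TOB2) to 0.74 (ZFP36L2).

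Krüppel-like factors, zinc finger regulators of growth and differentiation, had 5 of 15 tested members called positive, and the median was 0.21. KLF4 had 678, 712 and 697 at basal and 1588, 1333 and 1602 with isoproterenol in β-arrestin1/2 KO cells against 458, 488 and 502 at basal and 476, 461 and 416 with isoproterenol in Gαs KO cells. Only the Gαs KO groups overlapped, with a response difference of 1.21 (SE 0.11, adjusted p = 1.7e-05). KLF3, KLF5, KLF6 and KLF9 had differences of 0.38, 0.33, 0.30 and 0.45, and KLF2, a factor known from endothelium, had -0.37 (adjusted p = 0.38). KLF5 was called in 13 of 24 alternative fits, 3 of them among the 12 without 1 library. Of 18 tested circadian clock genes, NFIL3 (1.11, SE 0.19, adjusted p = 0.00608), BHLHE40 (0.69, SE 0.085, adjusted p = 0.000393) and PER1 (0.58, SE 0.107, adjusted p = 0.00943) were called positive. PER1 carries cAMP response elements and is a clock component known to answer to acute stimuli. PER2 had a difference of 0.04 (SE 0.179), CLOCK 0.16 and CRY1 0.13, and the median of the list was 0.038. The share called positive over all genes tested was 2.47%.

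Among 11 tested small GTPases known as inducible, 4 were called positive. GEM, an inhibitor of voltage-gated calcium channels, had 164, 134 and 104 normalized counts at basal and 777, 622 and 591 with isoproterenol in β-arrestin1/2 KO cells, and 145, 128 and 114 at basal and 162, 162 and 139.5 with isoproterenol in Gαs KO cells. The 3 isoproterenol libraries of β-arrestin1/2 KO cells were the highest of the 12, and the response difference was 2.04 (SE 0.225, adjusted p = 0.000125). RHOB had a larger count and a tighter estimate, from 4877, 4874 and 5201 to 10484, 10955 and 10740.2 in β-arrestin1/2 KO cells and from 3029, 3128 and 2971 to 2971, 3143 and 3007 in Gαs KO cells, where the groups overlapped. Its response difference was 1.11 (SE 0.054, adjusted p = 2.51e-08). RND3, a member that lacks GTPase activity, had 0.64. Of 11 tested growth factors, INHBA, a subunit of activin, had a response difference of 1.88 (SE 0.392, adjusted p = 0.0184), and VEGFA, the endothelial growth factor, 0.52 (SE 0.119, adjusted p = 0.0302). INHBA was called in 18 and VEGFA in 14 of 24 alternative fits, and in 9 and 4 of the 12 without 1 library. The EGF family members AREG (1.91, SE 0.943) and HBEGF (0.58) were not called. STC1, the secreted protein stanniocalcin, was the 1 member called of 10 tested neuroendocrine cAMP targets. It had 123, 109 and 106 at basal and 399.6, 386 and 431 with isoproterenol in β-arrestin1/2 KO cells and 83.9, 58.8 and 65.5 at basal and 95.9, 62.6 and 71.5 with isoproterenol in Gαs KO cells, with overlap in the latter. Its response difference was 1.703 (SE 0.237, adjusted p = 0.00118).

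**Figure D4:**
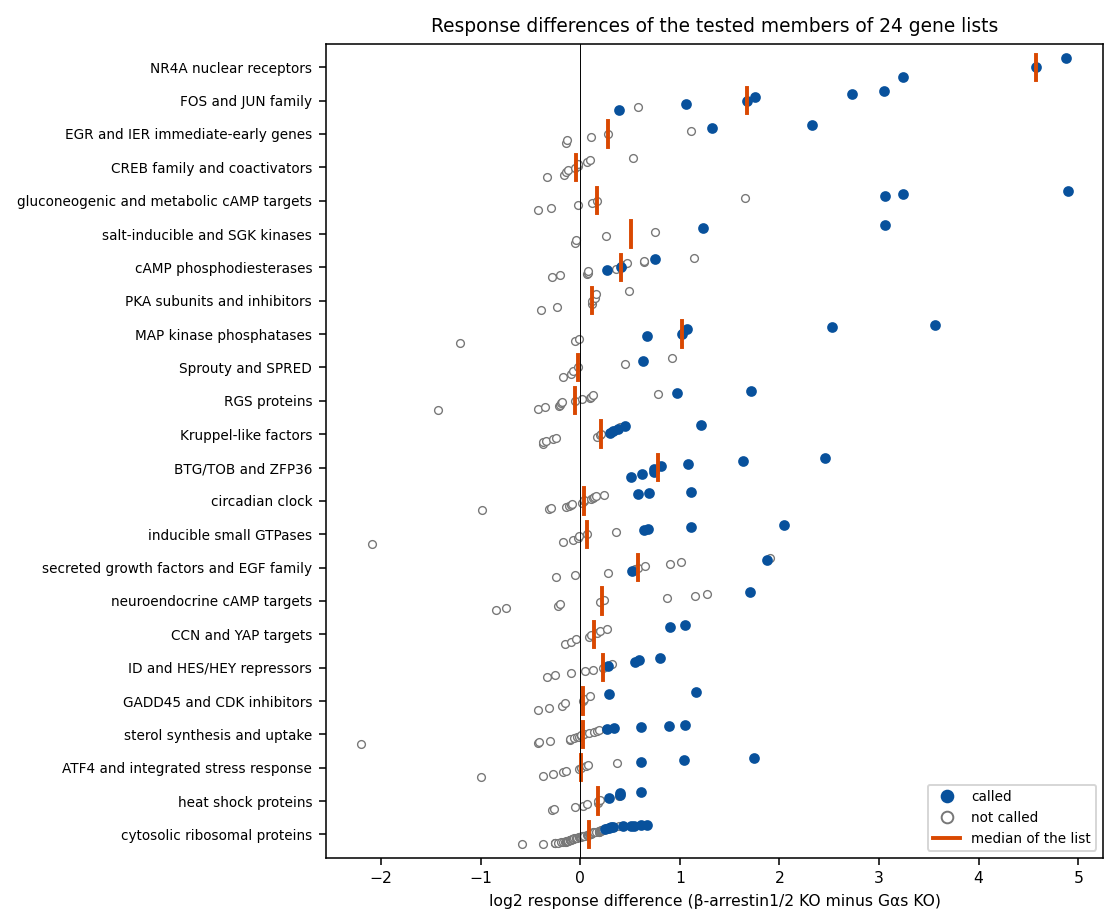
Log2 response difference of each tested member of 24 gene lists, with filled points for called genes, open points for the others and a bar at the median of each list. All called members lie on the positive side, the CREB and PKA lists hold none, and the NR4A receptors have the highest median (4.57).

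Across the 24 lists, 77 of 324 distinct tested genes were called (23.8% against 3.73% of all genes), and all 77 were positive. The lists were drawn up with earlier results of these data known, so their shares are not independent evidence. The ID and HES/HEY repressors, helix-loop-helix proteins that hold back differentiation, had 4 of 11 members called, with ID2 at 0.80, ID1 at 0.59, HES1 at 0.55 and HEY1 at 0.27. The call of ID1 was made in 6 of the 12 fits without 1 library. In the list of GADD45 genes and CDK inhibitors, GADD45B (1.17, SE 0.0843, adjusted p = 1.71e-06) and CDKN1A (0.29, SE 0.0578, adjusted p = 0.0143) were called among 9 tested. Of 22 sterol genes, 5 were called positive. IDI1, the isomerase of the isoprenoid pathway, had a response difference of 1.06 (SE 0.0644, adjusted p = 2.4e-07), and INSIG1, a brake on SREBP processing, 0.90 (SE 0.0545, adjusted p = 2.4e-07). HMGCS1 and CYP51A1 had 0.27 and 0.33, while SQLE, squalene epoxidase, was not called (0.08). The call of HMGCS1 was lost with GC and length offsets (edgeR adjusted p = 0.165). That of CYP51A1 was kept with these offsets (0.0493) and lost when the replicate block was added to them. The median of the sterol list was 0.026.

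Stress genes were partly among the calls. ATF3 had 1366, 1376 and 1588 normalized counts at basal and 5428, 4889.5 and 5473 with isoproterenol in β-arrestin1/2 KO cells and 1662, 1831 and 1806 at basal and 1892, 1925 and 1950.5 with isoproterenol in Gαs KO cells. Neither line had overlapping groups, and the rise was larger in β-arrestin1/2 KO cells, with a response difference of 1.75 (SE 0.0866, adjusted p = 2.78e-08). It belongs to the ATF4 and integrated stress response list, of which ATF4 (0.61) and PPP1R15A (1.04) were also called among 13 tested. The call of ATF4 was made in 6 of the 12 fits without 1 library. DDIT3, TRIB3 and ASNS, other targets of ATF4, had differences of -0.28, -0.17 and -0.01. Of 13 tested heat shock genes, HSPA5, HSPA8, HSPH1 and DNAJB9 were called, with differences from 0.29 (HSPH1) to 0.61 (DNAJB9). The calls of HSPH1 and DNAJB9 were lost with GC and length offsets (edgeR adjusted p = 0.184 and 0.0677). They were made in 5 and 8 of the 12 fits without 1 library. Cytosolic ribosomal protein genes had 9 of 80 members called, between 0.25 (RPS13) and 0.67 (RPS26), and a median of 0.086. Of all genes tested, 2.47% were called positive. The calls of RPL34, RPS21 and RPS27L were each made in 4 of the 12 fits without 1 library. Many ribosomal protein genes have processed copies, so their counts are less certain, and RPS10 shares exons with a readthrough gene.

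Some genes of the top ranks were in no list. EVX1, a homeobox gene, had 9.8, 11.4 and 3.3 normalized counts at basal and 144, 88.8 and 120.1 with isoproterenol in β-arrestin1/2 KO cells, and 1, 8.7 and 8.6 at basal and 2, 4 and 1.2 with isoproterenol in Gαs KO cells. The few counts of EVX1 outside the isoproterenol libraries of β-arrestin1/2 KO cells leave a wide error, with a response difference of 5.08 (SE 0.869, adjusted p = 0.00625). SEMA6B, a transmembrane semaphorin, had 37, 18 and 26.2 at basal and 96.2, 306 and 185 with isoproterenol in β-arrestin1/2 KO cells and 16.4, 16.4 and 12.9 at basal and 23.2, 16.2 and 14.1 with isoproterenol in Gαs KO cells, a response difference of 2.63 (SE 0.587, adjusted p = 0.0256). SEMA6B was called in 13 of 24 alternative fits and in 6 of the 12 without 1 library. Most of the added SEMA6B counts fell on the transcript that starts at 4559808 of chromosome 19, with 72.6, 237.5 and 163.8 normalized counts in the isoproterenol libraries of β-arrestin1/2 KO cells and 0 in the 9 other libraries, while the transcript that starts at 4546469 had 20.4 ± 3.58 (SD, n = 3) there and 27.0 ± 9.24 at basal. AL034430.1, which overlaps MKKS in the annotation so that its counts are uncertain, had 0 counts in the basal libraries of β-arrestin1/2 KO cells and 45.6, 46 and 59.5 normalized counts with isoproterenol. Against a floor of 3 counts over the 3 basal libraries it was at least 50.4-fold higher, and in Gαs KO cells it had 42.4, 15.4 and 23.3 at basal and 22.2, 40.4 and 0 with isoproterenol.

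Among the genes with negative differences, TXNIP had the smallest adjusted p. TXNIP (ENSG00000265972, chromosome 1 from 145992435 to 145996600), which encodes a thioredoxin-binding arrestin-domain protein that restrains glucose uptake, had 1055, 1146 and 952 normalized counts at basal and 324, 396 and 363 with isoproterenol in β-arrestin1/2 KO cells. In Gαs KO cells it had 1636, 1812 and 1743 at basal and 1796, 1613 and 1774 with isoproterenol. The isoproterenol libraries of β-arrestin1/2 KO cells were below all others, the Gαs KO groups overlapped, and the response difference was -1.54 (SE 0.112, adjusted p = 1.71e-06). ARHGEF5, a guanine nucleotide exchange factor, had 344, 268 and 269 at basal and 148, 115 and 136 with isoproterenol in β-arrestin1/2 KO cells and 298, 281 and 305 at basal and 355, 217 and 328 with isoproterenol in Gαs KO cells. Its groups overlapped in Gαs KO cells only, and the response difference was -1.17 (SE 0.236, adjusted p = 0.0151). ABR, a regulator of small GTPases, had a response difference of -1.01 (SE 0.229, adjusted p = 0.027), and the polarity scaffold SCRIB -1.08 (SE 0.266, adjusted p = 0.0401). Both calls were often lost, since ABR was called in 10 and SCRIB in 9 of 24 alternative fits, and in 3 and 2 of the 12 fits without 1 library. For VARS, the valyl-tRNA synthetase, the counts were 1079, 589.5 and 739 at basal and 410.5, 385 and 209 with isoproterenol in β-arrestin1/2 KO cells and 1219.5, 1256 and 1035 at basal and 1389, 1759.5 and 1358 with isoproterenol in Gαs KO cells, lower with isoproterenol without overlap in the former and higher without overlap in the latter. The response difference was -1.61 (SE 0.312, adjusted p = 0.0121). ACTN4, an actin crosslinker, EIF3I, a subunit of translation initiation factor 3, and LENG9, which overlaps LENG8, had differences of -1.01, -1.003 and -0.98. EIF3I was called in 10 of 24 alternative fits and in 3 of the 12 without 1 library.

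Both of the remaining negative genes were at 0 in a whole group. KIAA1147 had 1342, 868 and 579 normalized counts at basal in β-arrestin1/2 KO cells and 0 counts in the 3 isoproterenol libraries, so it was at least 885-fold lower against a floor of 3 counts over the group. It had 473, 1256 and 433 at basal and 544, 1329 and 1288 with isoproterenol in Gαs KO cells. GDF1, which shares its transcripts with CERS1, had 374, 20.4 and 378 at basal and 0 counts with isoproterenol in β-arrestin1/2 KO cells, at least 245-fold lower, and 283, 282 and 286 at basal and 299, 44.4 and 117 with isoproterenol in Gαs KO cells. Both genes also varied several-fold among libraries of the same group, as the basal values of GDF1 in β-arrestin1/2 KO cells show. The counts are estimates that Salmon shares out among transcripts, and unmatched transcripts are outside the gene sums. A count of 0 therefore need not mean that the RNA was lost. The unmatched ENST00000638706.2 likewise had 329, 453 and 656 counts at basal and 0 with isoproterenol in β-arrestin1/2 KO cells. Whether counts moved between transcripts was not tested. The call of GDF1 was lost with GC and length offsets (edgeR adjusted p = 0.0839) and made in 8 of 23 alternative fits, 2 of them among the 12 without 1 library, while that of KIAA1147 was made in 22 of 23. When unmatched transcripts were kept as features of their own, 3 of the 9 genes with a difference of -1 or below were still called, and 44 of the 53 genes at 1 or above.

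The response of Gαs KO cells enters the difference with the opposite sign, so its own leading genes are given. EGR1 had 269.9, 316 and 291 normalized counts at basal and 478, 448 and 485 with isoproterenol in Gαs KO cells, and 348, 416 and 409 at basal and 540.4, 598 and 584 with isoproterenol in β-arrestin1/2 KO cells. In both lines every isoproterenol library was above every basal one, and the log2 response was 0.69 (SE 0.0868, adjusted p = 0.0279) in Gαs KO and 0.55 (SE 0.0849, adjusted p = 0.000967) in β-arrestin1/2 KO cells. The Gαs KO call of EGR1 was lost over 18 or 17 libraries and with unmatched transcripts kept as features. It was also lost without certain single libraries, such as any of the Gαs KO isoproterenol libraries. CYR61 and CTGF, matricellular proteins and known targets of YAP, were among the next genes by p in Gαs KO cells. CYR61 had 838, 939 and 806 at basal and 1204, 1102 and 1117 with isoproterenol there, a log2 response of 0.41 (adjusted p = 0.0545), against 600.0, 586 and 607 at basal and 1635, 1646 and 1636 with isoproterenol in β-arrestin1/2 KO cells. Its response difference was 1.05 (SE 0.0829, adjusted p = 4.08e-06). CTGF had log2 responses of 1.48 in β-arrestin1/2 KO and 0.59 in Gαs KO cells and a response difference of 0.90 (SE 0.133, adjusted p = 0.00196). These were the 2 genes called of 10 tested targets of the CCN and YAP list, whose median difference was 0.14. ETS2, an ETS transcription factor, moved in opposite directions by value, from 382, 394 and 398 to 273, 279.8 and 304 in Gαs KO cells and from 528, 594 and 578 to 903, 899 and 970.0 in β-arrestin1/2 KO cells, with no overlap in either line. Its log2 responses were -0.46 (adjusted p = 0.0872) and 0.70 (adjusted p = 1.15e-05), and the response difference was 1.16 (SE 0.0968, adjusted p = 6.79e-06). RAB33B, a Rab GTPase of the Golgi, had a positive difference with overlapping groups in β-arrestin1/2 KO cells and a lower isoproterenol level in Gαs KO cells, where it had 165, 168 and 221 at basal and 62.6, 67.7 and 94.9 with isoproterenol. Its log2 responses were 0.16 in β-arrestin1/2 KO cells and -1.30 (adjusted p = 0.486) in Gαs KO cells, and the response difference was 1.46 (SE 0.35, adjusted p = 0.0349). It was called in 11 of 24 alternative fits and in 3 of the 12 without 1 library.

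The lines differed in level for many more genes than in response. At basal, 7390 genes (48.2%) were called between the lines, and with isoproterenol 8268 (53.9%). Both comparisons share libraries with the response difference. NR4A1, FOS and PCK1 were higher at basal in β-arrestin1/2 KO cells, by 1.39, 2.23 and 4.47 on the log2 scale, and DUSP1, SIK1 and JUNB by 0.72, 0.62 and 0.76. NR4A3 and CSRNP1 had basal differences of 0.45 (adjusted p = 0.216) and -0.11 (adjusted p = 0.329). DUSP2, EGR2 and TXNIP were lower at basal in β-arrestin1/2 KO cells, with log2 differences of -1.05, -0.97 and -0.72.

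GC content moved with treatment in 1 line. The mean GC content of the transcripts counted was between 49.76 and 50.1% in the basal and between 49.29 and 49.43% in the isoproterenol libraries of β-arrestin1/2 KO cells, without overlap (difference -0.607 percentage points, two-sided exact permutation p = 0.1, the smallest that 3 against 3 allow). In Gαs KO cells it ran from 49.88 to 50.04% at basal and from 49.89 to 50.06% with isoproterenol (exact permutation p = 0.8). Mitochondrial transcripts took 1.702 to 2.655% of counts at basal and 2.97 to 3.32% with isoproterenol in β-arrestin1/2 KO cells, and 2.14 to 2.41% and 2.16 to 2.33% in Gαs KO cells. Across 5 groups of tested genes of equal size, ordered by GC content, the median response difference went from 0.125 in the lowest to -0.162 in the highest group, the median β-arrestin1/2 KO response from 0.12 to -0.171, and the median Gαs KO response stayed between -0.0011 and 0.0032. The group of lowest GC content held 181 of the positive and 1 of the negative calls, and that of the highest 24 and 124. The 241 positive genes under 0.5 had a median GC content of 40.4%, the 53 at 1 or above 51.0%, and all genes tested 49.5%. With offsets for GC content and length, 284 genes were called, 237 of them among the 572, and 48 of the 53 large positive and 5 of the 9 large negative genes were still called. The cause of the shift in GC content was not tested.

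**Figure D5:**
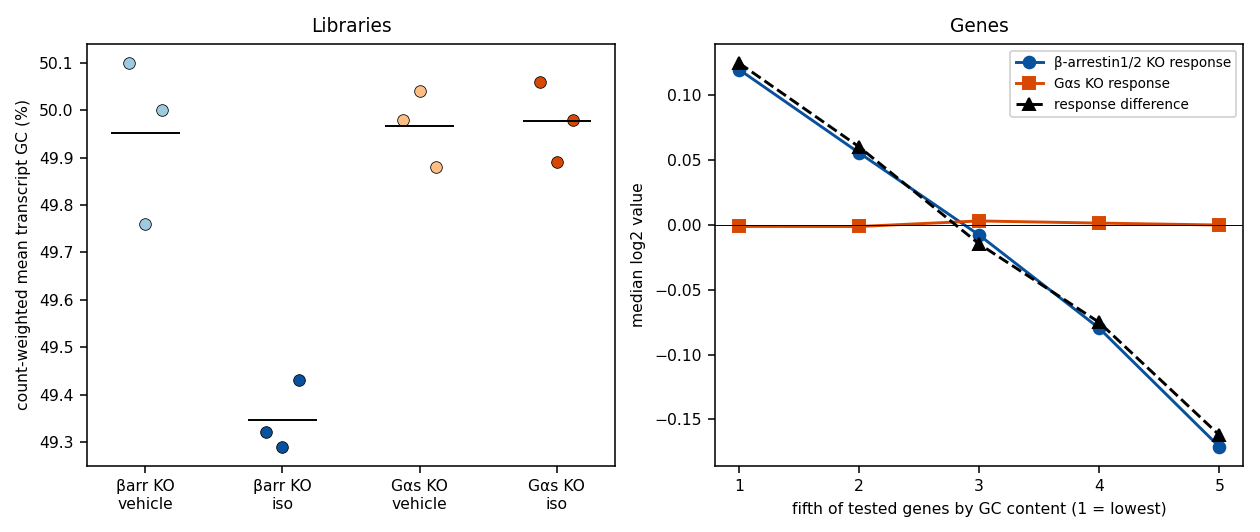
Left, count-weighted mean GC content of transcripts in percent for each library, with a line at the group mean. Right, median log2 value in 5 groups of tested genes from lowest to highest GC content: the response difference falls from 0.125 to -0.162 along with the β-arrestin1/2 KO response, and the Gαs KO response stays near 0.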

How the data were processed

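Poly-A RNA of 18 HEK293 libraries was sequenced as 150-base pairs, and the 12 libraries of the KO lines were used. The authors quantified transcripts with Salmon 1.7.0 and deposited expected counts per transcript, which are estimated counts that are not normalized. The transcript index and its annotation release are not given in the sources used here. Counts were summed per gene by transcript identifier with GENCODE 29 (161838 of 184844 transcripts matched, 34287 genes) and rounded. Reads of unmatched transcripts stayed out of the gene sums, which held 93.55 to 93.76% of the counts of a library.

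Genes were filtered with filterByExpr by group, scaled by TMM and fitted with edgeR 4.0.16 (R 4.3.3) quasi-likelihood tests, with 1 coefficient per group and no block (biological coefficient of variation 0.0922). Calls had a Benjamini-Hochberg adjusted p under 0.05 over 15327 genes. The replicates were labelled as biological replicates, and what separates them is not given, so p-values measure the spread between these samples. On counts simulated for 15094 genes, without basal differences between the lines or a shift with GC content, 10 unchanged genes were called. Log2 changes of genes with few counts depend on the prior count of the fit.

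The genes named were the targeted genes, the 16 largest positive and 10 largest negative called differences with a mean of at least 20 normalized counts in 1 group, called members of the gene lists with some members not called, and the 5 genes of smallest p in each single response. Some genes that the rule names are not reported here. Other genes named were chosen after their values were seen. The members and lists were chosen with earlier results of these data known. Alternatives were DESeq2 1.42.0, other scalings, filters and thresholds, offsets for GC content and length, replicate blocks, other sets of libraries, and leaving out each library. Promoter windows were those of RefSeq (GRCh38.p14). Transcript starts over 1000 bases apart were kept as separate groups.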

Additional observations from a re-analysis of the deposited data

Results flagged for a closer look

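A response difference between the lines was found for 572 genes by edgeR's quasi-likelihood test. It tests whether the change from basal to isoproterenol was unequal in the lines. With offsets for GC content and length, 237 of the 572 were still called. For the named genes the log2 differences were as follows. Among the targeted genes it was -0.41 for GNAS. Among the leading positive genes it was 5.08 for EVX1, 4.90 for PCK1, 4.88 for NR4A3, 4.57 for NR4A2, 3.56 for DUSP1, 3.48 for SIK1B, 3.24 for NR4A1, 3.06 for SIK1, 3.05 for FOS, 2.73 for JUNB, 2.63 for SEMA6B, 2.53 for DUSP2, 2.46 for BTG2, 2.32 for EGR2 and 2.09 for CSRNP1. Among the leading negative genes it was -1.61 for VARS, -1.54 for TXNIP, -1.17 for ARHGEF5, -1.08 for SCRIB, -1.01 for ABR, -1.01 for ACTN4, -1.003 for EIF3I and -0.98 for LENG9. For 3 genes with 0 counts in a whole group the fitted values, which depend on the prior count and are no bounds, were 9.003 for AL034430.1, -13.41 for KIAA1147 and -10.11 for GDF1. Among the genes leading in Gαs KO cells it was 1.05 for CYR61, 1.16 for ETS2, 0.90 for CTGF and 1.46 for RAB33B.

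The other called members of the immediate-early and signalling lists had log2 response differences of 1.75 (FOSB), 1.67 (FOSL2), 1.06 (JUN), 0.39 (JUND), 1.32 (IER2), 1.23 (SGK1), 0.27 (PDE3B), 0.75 (PDE4D), 0.41 (PDE10A), 1.02 (DUSP4), 1.07 (DUSP5), 0.67 (DUSP10), 0.63 (SPRY2), 1.71 (RGS2) and 0.97 (RGS16). Called regulators of transcription, mRNA decay and the clock had 0.38 (KLF3), 1.21 (KLF4), 0.33 (KLF5), 0.30 (KLF6), 0.45 (KLF9), 0.74 (BTG1), 0.62 (BTG3), 1.64 (TOB1), 0.51 (TOB2), 0.81 (ZFP36), 1.08 (ZFP36L1), 0.74 (ZFP36L2), 0.58 (PER1), 0.69 (BHLHE40), 1.11 (NFIL3), 0.59 (ID1), 0.80 (ID2), 0.55 (HES1) and 0.27 (HEY1). Called GTPases, secreted factors and growth regulators had 2.04 (GEM), 0.64 (RND3), 1.11 (RHOB), 0.52 (VEGFA), 1.88 (INHBA), 1.703 (STC1), 1.17 (GADD45B) and 0.29 (CDKN1A). Called sterol and stress genes had 0.27 (HMGCS1), 1.06 (IDI1), 0.33 (CYP51A1), 0.90 (INSIG1), 0.61 (ATF4), 1.75 (ATF3), 1.04 (PPP1R15A), 0.40 (HSPA5), 0.40 (HSPA8), 0.29 (HSPH1) and 0.61 (DNAJB9). Called ribosomal protein genes had 0.32 (RPL34), 0.25 (RPS13), 0.54 (RPL21), 0.31 (RPS10), 0.29 (RPL23), 0.43 (RPS15A), 0.51 (RPS21), 0.61 (RPS27L) and 0.67 (RPS26).

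Transcripts that matched no GENCODE 29 gene lay outside the gene sums, and 30 of 6131 of them tested as features of their own were called, 11 positive and 19 negative. ENST00000677375.1, which was called, had 300, 552 and 394 counts at basal and 1789, 2325 and 2224 with isoproterenol in β-arrestin1/2 KO cells, and 395, 267 and 268 at basal and 243, 226 and 271 with isoproterenol in Gαs KO cells. ENST00000657090.1, which was not among the 30 called, had 602, 2749 and 1648 counts at basal and 10708, 12560 and 11334 with isoproterenol in β-arrestin1/2 KO cells, so that the lowest isoproterenol library stood above all basal libraries, and 0 in the 6 Gαs KO libraries. Their genes are not named here.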

How the results depend on the processing

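The response difference of 572 genes (378 positive, 194 negative) kept its count within 1.5 times under DESeq2 size factors (567), upper-quartile scaling (604), no filter (725) and at least 10 counts in every library (766). DESeq2's Wald test gave 979 genes (419 negative), offsets for GC content and length 284 (232 positive, 52 negative), an adjusted p under 0.01 170 (142 and 28), and a log2 difference of at least 1 62 (53 and 9). A fit over all 18 libraries gave 63 (60 and 3), and a fit over the 17 libraries other than wildtype basal replicate 1, added after the data were seen, 414 with 127 negative. Unmatched transcripts kept as features, also added then, left 433 genes with 110 negative. Wildtype basal replicate 1 had a mean transcript GC content of 52.49%, against 49.15 and 49.63% in the other wildtype basal libraries. Leaving out 1 library gave 267 to 959 genes, 196 to 543 positive and 71 to 416 negative. The cause of these moves was not tested, and stricter thresholds give fewer calls by construction.

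For the β-arrestin1/2 KO response (2208 genes) the fit over 18 libraries gave 175 and that over 17 libraries 1849. The GC and length offsets gave 752, the 0.01 threshold 867, the log2 limit of 1 112, and leaving out 1 library 1283 to 2454. For the Gαs KO response (1 gene, 533 at an unadjusted p under 0.05) DESeq2 gave 12, no filter 5, and at least 10 counts or the GC and length offsets 2. It was 0 with 18 or 17 libraries, with unmatched transcripts, at 0.01 and at a log2 of 1, and 0 to 2 without 1 library. The basal difference (7390) fell to 4064 and the level difference with isoproterenol (8268) to 4830 with 18 libraries. With 17 libraries they were 7141 and 8064, and at a log2 of 1 they were 1338 and 1551.

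Same-numbered basal and isoproterenol libraries did not deviate together, with correlations of 0.0251, 0.0625 and 0.0342 in β-arrestin1/2 KO and -0.0416, 0.0696 and 0.00925 in Gαs KO cells, so the numbers were not taken as pairs. A replicate block over the 12 libraries gave 620 genes for the response difference and 2 for the Gαs KO response, a replicate block within each line 717 and 3, and the replicate block with GC and length offsets 267 (224 positive, 43 negative), 754 for the β-arrestin1/2 KO and 2 for the Gαs KO response. Of 95 named genes called, 41 were called in every one of the alternative fits (up to 24 each, thresholds aside), 72 in each of the 12 fits without 1 library and 82 with GC and length offsets. Fewer calls than losses were found for 10: DUSP10 (5 fits), PDE10A (6), GDF1, PDE3B and ZFP36 (8), SCRIB (9), ABR, EIF3I and RPS27L (10) and RAB33B (11). Among the other called named genes, 6 or fewer of the 12 fits without 1 library made the call for some. These were KLF5 (3 fits), RPL34, RPS21 and VEGFA (4), HSPH1 (5), and ATF4, BTG3, ID1 and SEMA6B (6). No called difference of a named gene changed sign.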
